A study of Rattus norvegicus with 150 samples.

Results

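The effect of an embedded cobalt (Co) cylinder on rat skeletal muscle after 3 months was measured by comparing the 8 Co libraries of that time with the 8 tantalum (Ta) libraries of the same time, all chosen by their metal and time labels. They are 16 of the 150 RNA-seq libraries of the study, which form 19 groups of metal and time. Male Sprague-Dawley rats, about 30 days old at purchase and acclimated for at least 2 weeks, carried 4 cylinders of 1 metal in the gastrocnemius, 2 in each limb, each cylinder 1 mm wide and 2 mm long. Ta was the sham metal, so both groups had the surgery and a metal body in the muscle. Libraries of the same time with nickel (Ni), the label P (kept as written; the design text lists lead) and depleted uranium (DU), 8 each, served as a second set of libraries to compare with Co. The labels give neither the age at collection nor the distance of the sampled tissue from a cylinder, and no label says which rat a library came from. The p-values therefore describe variation among libraries, part of which may be technical.

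Skeletal muscle is built mostly of multinucleate fibres whose RNA is dominated by transcripts for contraction and energy supply, with vessels, connective tissue, satellite cells and immune cells between the fibres. A foreign body in tissue is typically met by macrophages and enclosed by fibrous tissue. Cobalt ions are known to inhibit the oxygen-dependent hydroxylases that mark hypoxia-inducible factors for destruction, whereas tantalum is regarded as a poorly reactive implant metal.

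The count table names genes by Ensembl identifier only, and 0 of its 32545 identifiers matched the gene table used here. Gene functions, marker genes of muscle or immune cells and the labelled tissue were therefore not analysed here, and genes are described by identifier, level and pattern across libraries. Total counts ran between 13151616 and 15975085 in the 16 libraries. Levels are CPM (read counts scaled to a common library size) adjusted by TMM, a factor per library that sets the bulk of genes level between libraries. One library of the second set stood apart: in DU replicate 2, 12.7% of counts came from the 91 genes that average at least 1000 CPM in the rest of the study, against 54.7% to 65.7% in the other 7 DU libraries.

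Co muscle differed from Ta muscle mainly by rises. Of 12429 genes tested with edgeR's quasi-likelihood test, 801 passed (6.44%): 767 were higher with Co (6.17%) and 34 were lower (0.274%) at an adjusted p under 0.05 after Benjamini-Hochberg correction. This fit left the replicate number out, and with it as a block 1 gene was called. The rises and falls described below are those of the fit without the block. The rises were large, with a median log2 fold change of 2.24, and 724 of them exceeded 2-fold. The falls were small, with a median of -0.76 and 8 beyond 2-fold. The median over all tested genes was -0.03. In bulk tissue, more cells of a type and more RNA per cell cannot be told apart.

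**Figure D1:**
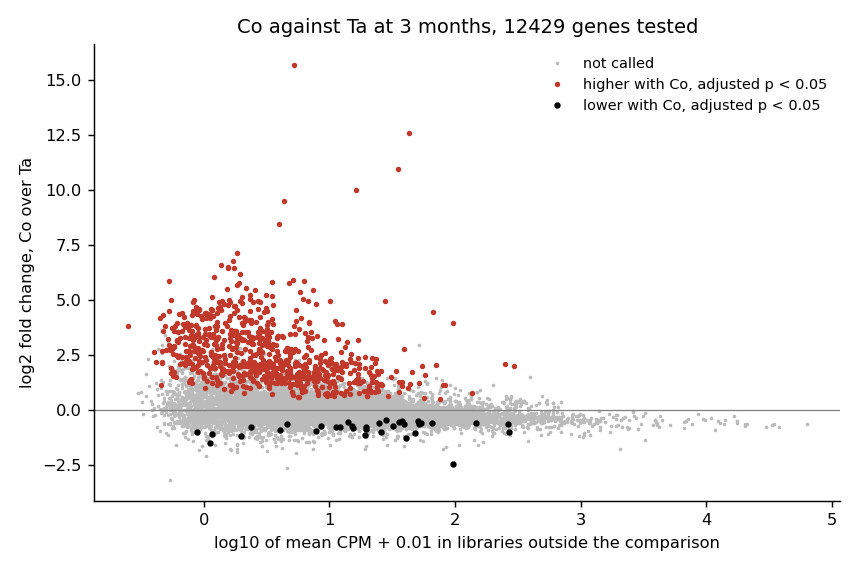
Log2 fold change of Co over Ta for each of the 12429 genes tested (vertical axis) against log10 of the mean CPM in libraries outside the comparison (horizontal axis), 1 point per gene. The 767 genes higher with Co lie mostly at low levels, and the 34 lower genes lie between -2.46 and -0.44.

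The number of genes called varied widely between fits. Same-numbered Co and Ta libraries deviated together from their group means, and with the replicate number as a block 1 gene was called. In that blocked fit 3566 of the 12429 genes had an unadjusted edgeR p under 0.05, against 2976 in the main fit. All 767 rises stayed positive and all 34 falls negative with the block. Of these, 760 rises and 34 falls had an unadjusted edgeR p under 0.05. Both lists were called from the same libraries, so these counts describe them and are no test. Leaving out 1 Co library gave 1310 genes without replicate 1, 365 without replicate 2, 512 without replicate 3, 1534 without replicate 4, 1426 without replicate 5, 380 without replicate 6, 1302 without replicate 7 and 365 without replicate 8. The genes lower with Co numbered 83, 9, 9, 156, 157, 7, 151 and 6 in these fits. With all 16 libraries, 3 genes passed under limma voom when libraries were weighted by quality, and 1475 under DESeq2.

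The gene with the largest rise, ENSRNOG00000050000, had no count in Ta muscle. It had 31.2, 742, 1107, 19.9, 2.42, 141, 8.25 and 1096 CPM in Co replicates 1 to 8, against 0 counts in each of the 8 Ta libraries. Every Co library was above every Ta library, but the Co levels spanned a wide range, highest in replicates 2, 3 and 8 and lowest in replicate 5. Its mean was 393 ± 501 CPM with Co (SD, n = 8), at least 15506-fold higher than in Ta, taking 3 counts summed over all Ta libraries as the floor (adjusted p from edgeR = 0.0119; adjusted p = 0.0666 with the replicate block). It was the only tested gene with no count in any Ta library. The filter on low counts requires a minimum level in as many libraries as a group holds. A gene silent in Ta was therefore tested only if every Co library expressed it.

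ENSRNOG00000048402 was second. It had 1622, 2918, 2661, 151, 19.9, 1373, 36.4 and 11322 CPM in Co replicates 1 to 8, against 0.0495 to 1.10 CPM in the Ta libraries, with a median of 0.257 CPM. The groups did not overlap, and replicate 8 was far above the other Co libraries, while replicates 5 and 7 were lowest. The log2 fold change was 12.60 ± 1.47 (SE; edgeR adjusted p = 0.0016; adjusted p = 0.0666 with the replicate block).

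**Figure D2:**
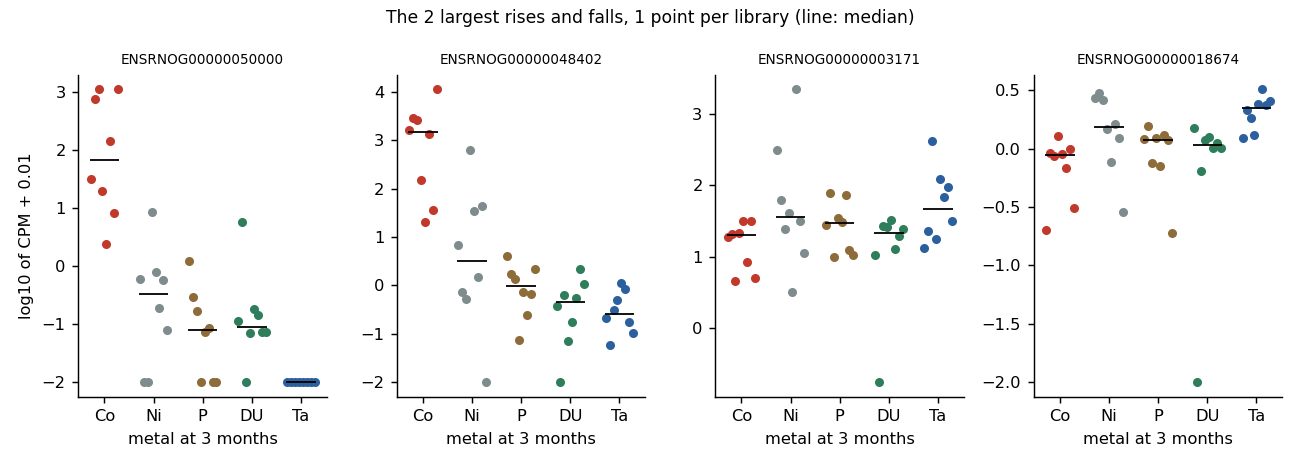
Level of the 4 named genes in each library at 3 months, as log10 of CPM + 0.01, with 1 point per library and a line at the median, for Co, Ni, P, DU and Ta. ENSRNOG00000050000 and ENSRNOG00000048402 are above every Ta library in all 8 Co libraries, whereas Co and Ta overlap for ENSRNOG00000003171.

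The 767 rises were carried very unequally by the 8 Co libraries. For each gene, the log2 ratio of a Co library to the Ta median was taken after adding 0.1 CPM. Over the rises its median was 0.43, 3.39, 2.33, 0.31, 0.23, 3.14, 0.57 and 3.21 in Co replicates 1 to 8, against -0.64 to 0.26 in the Ta libraries. Replicates 2, 3, 6 and 8 were far above the Ta range, replicates 1, 4 and 7 just above its upper end and replicate 5 within it.

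**Figure D3:**
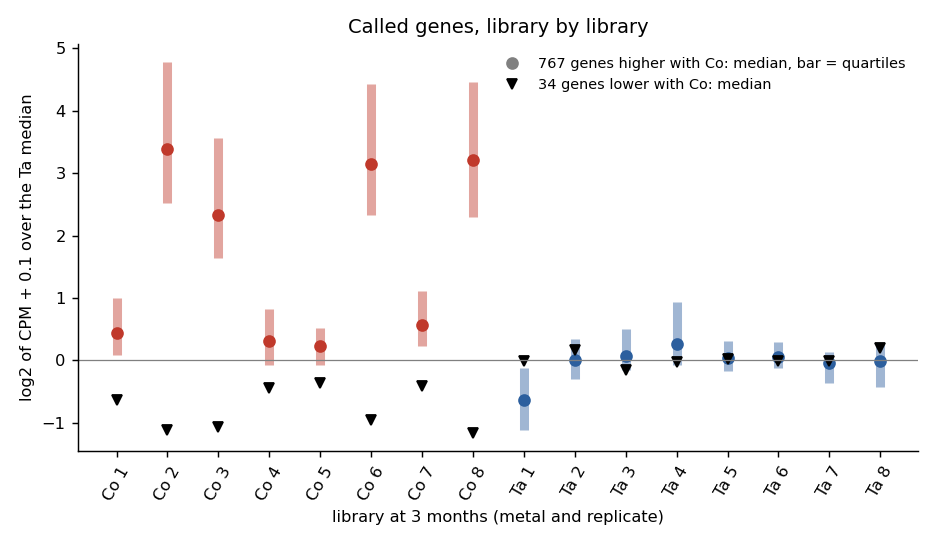
Log2 ratio to the Ta median for the genes higher with Co, 1 column per library, with points at the median and bars between the quartiles, and triangles at the median of the 34 genes lower with Co. Co replicates 2, 3, 6 and 8 have medians of 2.33 to 3.39, and the other Co libraries 0.23 to 0.57.

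Counting genes gave the same order of libraries, apart from replicates 2 and 8, which changed places. Of the 767 rises, 209, 766, 760, 164, 117, 765, 274 and 767 were above the highest Ta library in Co replicates 1 to 8. In Ta, each library set against the other 7 had 28 to 271 such genes with a median of 74.5, and replicate 4 was the highest. The 4 least changed Co libraries thus had counts of 117 to 274, which overlap the Ta range at its upper end. The same count was 26 to 231 in Ni, 16 to 81 in P and 31 to 430 in DU libraries, where 430 belonged to DU replicate 2 and the next highest DU library had 134.

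**Figure D4:**
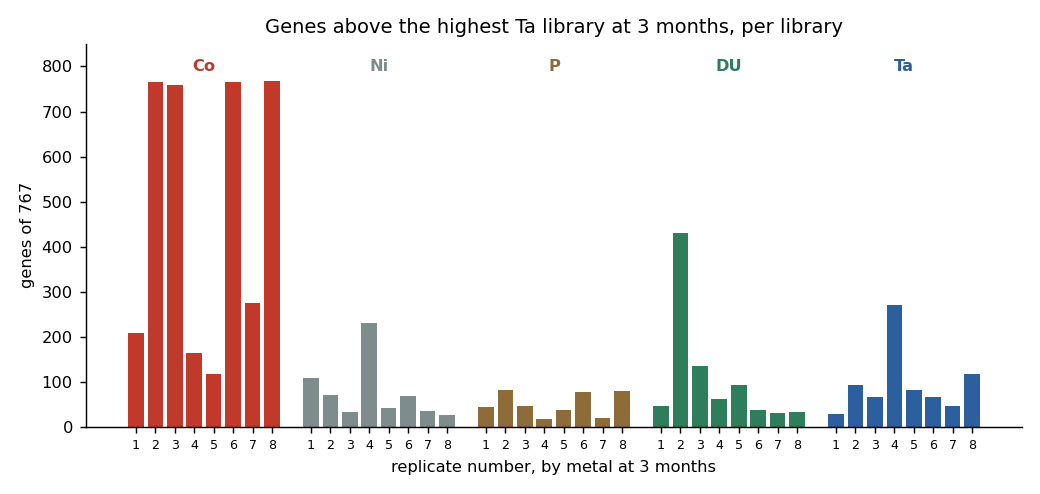
Number of the 767 rises that lie above the highest Ta library, in each Co, Ni, P, DU and Ta library at 3 months (each Ta library against the other 7). Co replicates 2, 3, 6 and 8 have 760 to 767, and no other library exceeds 430.

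The share of the library taken by these genes was also highest in replicates 2, 3, 6 and 8. The 767 rises supplied 0.932%, 11.4%, 4.43%, 0.601%, 0.583%, 8.28%, 0.816% and 11.9% of counts in Co replicates 1 to 8, against 0.322% to 0.658% in Ta. The TMM factor moved with it: 0.986, 1.89, 1.34, 1.05, 1.03, 1.69, 1.15 and 1.72 in Co replicates 1 to 8, against 0.798 to 1.28 in Ta. The part of library composition in the fold changes was not tested.

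Replicates 2, 3, 6 and 8 were the 4 highest Co libraries for 729 of the 767 rises (95.0%), against 1816 of the 11628 tested genes not called (15.6%). With library totals in place of TMM these shares were 98.3% and 36.0%. The 4 libraries were picked from these same rises, so the shares describe them and are no test. Replicate 2 was the highest library for 467 rises, replicate 8 for 149 and replicate 6 for 137. Relative to replicate 2, the median log2 level of the rises was -1.02 in replicate 3, -0.21 in replicate 6 and -0.22 in replicate 8. Replicate 3 thus had 760 of these genes above every Ta library, at a lower median level than in replicates 2, 6 and 8.

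The weakly changed libraries shared a likeness to Ta across all tested genes. The median Pearson correlation of log2 CPM across genes with the Ta libraries was 0.940, 0.937, 0.952 and 0.936 in Co replicates 1, 4, 5 and 7, against 0.907, 0.900, 0.872 and 0.880 with the other Co libraries. For each of these, the other Co libraries include all of replicates 2, 3, 6 and 8. The median with Co therefore does not measure how alike replicates 1, 4, 5 and 7 were to each other. Replicates 2, 3, 6 and 8 were nearer to Co than to Ta. Among the Ta libraries, the median correlation of each with the others was 0.909 to 0.941. Co replicates 1, 4 and 7 lay within that range in their correlation with Ta, and replicate 5 lay above it. Genes are not independent replicates, and these values describe the libraries only.

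A small set of genes was raised in the weakly changed libraries too. All 8 Co libraries were above every Ta library for 19 of the rises (0.153% of the genes tested). Their log2 fold changes ran between 0.51 and 15.71 with a median of 5.57, against 2.24 over all rises. At the other end, 330 rises were above every Ta library in 4 Co libraries and 3 in 3 Co libraries. Leaving out Ta replicate 4 raised the count of 19 to 30, leaving out Co replicate 4 to 34, and leaving out Co replicate 5 to 55.

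The number of Co libraries that carried a rise differed between classes of fold change, without a steady order. Of the 14 genes raised over 64-fold, 13 were above the highest Ta library in 7 or 8 Co libraries. This held for 25 of the 94 genes between 16- and 64-fold, 12 of 148 between 8- and 16-fold, 8 of 214 between 4- and 8-fold, 16 of 254 between 2- and 4-fold and 9 of 43 up to 2-fold. Genes above the highest Ta library in 4 or fewer Co libraries made up 0 of the 14 over 64-fold, 120 of the 254 between 2- and 4-fold and 1 of the 43 up to 2-fold. Counts over the called genes describe them and are no test, since the fold change and the number of libraries come from the same values. The filter on low counts also shapes the top class. A gene almost absent from Ta was tested only if nearly all Co libraries expressed it, so such genes raised in fewer Co libraries were left out.

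Most rises were genes of low level in Ta muscle: 653 of the 767 averaged under 10 CPM there, against 5742 of all 12429 genes tested. From the class up to 2-fold to the class over 64-fold, the median CPM in Ta was 10.7, 4.75, 2.22, 1.36, 0.999 and 0.367, while in Co it was 16.9, 14.1, 11.5, 14.7, 25.9 and 43.1. In every Ta library 39 rises were under 1 CPM, as were 84 of all genes tested, and 66 rises were at 10 CPM or more, as were 5215 of all genes tested. The calls and fold classes use these same Ta values, so these levels describe the genes and are no test. By mean CPM in libraries outside the comparison, 17.6% of tested genes under 1 CPM were rises. The share was 10.3% at 1 to 10 CPM, 2.19% at 10 to 100 CPM, 0.315% at 100 to 1000 CPM and 0% at 1000 CPM or more. More genes were detected with Co: 12171 ± 495 genes reached 1 CPM in Co libraries and 11548 ± 211 in Ta libraries (SD, n = 8 each; exact two-sided permutation p = 0.00435, adjusted p = 0.0131 over 3 library measures). In 5 of the 8 Co libraries the number was above that of every Ta library. Paired by replicate number, Co was higher in 6 of 8 pairs (exact two-sided permutation p = 0.0313).

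The falls were few. All 8 Co libraries were below the Ta median for 33 of the 34 falls and for 375 of all 12429 genes tested, and all 8 were above it for 295 of the 767 rises and for 528 of all genes tested. Both lists were called from these same values, so these counts describe them and are no test. The number of falls below the lowest Ta library was 23, 28, 33, 15, 13, 31, 17 and 33 in Co replicates 1 to 8, against 0 to 10 in Ta libraries set against the other 7. Replicates 5, 4 and 7 had the fewest. All 8 Co libraries were below every Ta library for 3 of the falls, and for 4 of all tested genes (0.0322%). Median levels of the falls were 17.7 CPM with Co and 30.6 CPM with Ta. With library totals in place of TMM, the median of all genes moved to 0.38, the falls had a median of -0.37 and 8 of the 34 were still called, all 34 keeping a negative sign.

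ENSRNOG00000003171 had the largest fall. It had 18.9, 20.8, 4.56, 21.4, 31.1, 8.41, 31.6 and 5.09 CPM in Co replicates 1 to 8, against 13.2, 22.9, 420, 17.5, 122, 68.9, 93.8 and 31.9 CPM in Ta replicates 1 to 8. The groups overlapped, and Ta replicate 3 was far above the rest. The log2 fold change was -2.46 ± 0.68 (SE; edgeR adjusted p = 0.0404), and -1.57 without Ta replicate 3 (edgeR adjusted p = 0.104). With the replicate block it was -1.68 (edgeR adjusted p = 0.163).

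ENSRNOG00000018674, a gene of low level, came second. It had 0.190, 0.907, 0.861, 1.28, 0.899, 0.671, 0.988 and 0.299 CPM in Co replicates 1 to 8, against 1.24, 2.13, 1.84, 1.29, 2.43, 3.23, 2.38 and 2.56 CPM in Ta replicates 1 to 8. In 7 Co libraries the level was below every Ta library, and replicate 4 was within the Ta range. Among the Ta groups this gene too was highest at 3 months. Its Ta median was 2.25 CPM at 3 months, against 1.44, 0.596 and 0.702 CPM at 1, 6 and 12 months. The Co median at 3 months was 0.880 CPM. The log2 fold change was -1.47 ± 0.33 (SE; edgeR adjusted p = 0.0164; adjusted p = 0.103 with the replicate block).

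The most abundant genes had negative fold changes with Co, carried unequally by the Co libraries, and no single one passed the test. All 91 genes of at least 1000 CPM had a negative fold change, with a median of -0.54. None was called by edgeR, 6 had an unadjusted p under 0.05 and the smallest adjusted p was 0.0976. With library totals the median was -0.27, which is -0.64 relative to the shift of all genes. For these 91 genes the median log2 ratio to the Ta median was 0.25, -1.78, -0.54, 0.03, -0.02, -1.38, -0.37 and -1.56 in Co replicates 1 to 8. In the Ta libraries it ran between -0.71 and 0.22. The median fold change was lower in each higher class of level: 0.46 for genes under 1 CPM, 0.15 for those up to 10 CPM, -0.10 for those up to 100 CPM and -0.30 for those up to 1000 CPM. The filter keeps a low gene more readily where Co is high.

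**Figure D5:**
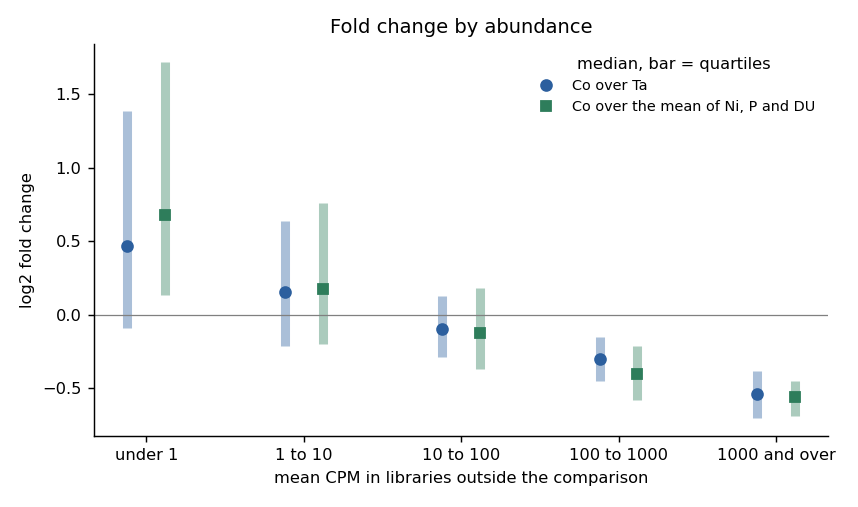
Log2 fold change by level class, the level being the mean CPM in libraries outside the comparison (DU replicate 2 left out), as medians with bars between the quartiles, for Co over Ta and for Co over the mean of Ni, P and DU. For Co over Ta the medians step down across the classes, 0.46 under 1 CPM and -0.54 at 1000 CPM or more.

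The 91 abundant genes supplied 57.1%, 30.5%, 47.2%, 54.8%, 58.9%, 36.3%, 56.3% and 33.9% of counts in Co replicates 1 to 8, against 42.8% to 67.7% in Ta. Replicates 2, 6 and 8 were below every Ta library. The mean was 46.9% ± 11.6 with Co and 57.6% ± 7.95 with Ta (SD, n = 8 each; exact two-sided permutation p = 0.0508, adjusted p = 0.0508), which did not pass.

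The other metals gave a second reference without the Ta libraries. Against the mean of Ni, P and DU at 3 months, 2887 of 13071 genes were higher with Co (22.1%) and 1194 lower (9.13%). Without DU replicate 2 these counts were 3804 (28.9%) and 2565 (19.5%). With library totals the split was 5739 higher and 126 lower. The total of 4081 genes became 2566 without Co replicate 2, 2697 without replicate 6 and 2661 without replicate 8. Both comparisons share the 8 Co libraries, so they are not independent.

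Of the 767 rises, 763 were tested against the other metals, and 683 were higher with Co (22.1% of all genes tested there) and 0 lower. Of the 34 falls, 10 were lower (9.13% of all genes tested there) and 0 higher, and 24 were lower without DU replicate 2 (19.5%). Both lists were called with the same 8 Co libraries, so these counts describe them and are no test. Against single metals, 690 of 742 rises tested were higher than in Ni (11.5% of all genes tested there), 684 of 716 than in P (19.6%) and 461 of 738 than in DU (12%), where 4 were lower with Co. Without DU replicate 2, 702 of 755 were higher than in DU (22.3%) and 0 lower. Of the falls, 13 of 34 were lower than in Ni (0.669% of all genes tested there), 8 than in P (9.55%) and 2 than in DU (5.43%), or 11 without DU replicate 2 (13.3%).

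ENSRNOG00000050000 was also higher than in the other metals, with a log2 difference of 9.35 ± 0.95 (SE; adjusted p from edgeR = 5.28e-09). ENSRNOG00000048402 was higher by 9.28 ± 1.02 (SE; edgeR adjusted p = 2.16e-08), but Ni replicate 4 reached 620 CPM, and against Ni alone the value was 4.88 (edgeR adjusted p = 0.0673). For ENSRNOG00000003171 the value was -1.74 ± 0.80 (SE, edgeR adjusted p = 0.0933), and Ni replicate 6 held 2217 CPM. Against Ni, P and DU alone, this gene had log2 differences of -4.22, -0.94 and -0.06 (edgeR adjusted p = 0.0281, 0.148 and 0.956). For ENSRNOG00000018674 the value against the mean of the other metals was -0.60 ± 0.38 (SE, edgeR adjusted p = 0.229).

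At other times Co libraries also differed among themselves. The number of the 767 rises above the highest Ta library of the same time was 734, 449, 755, 376, 339, 25, 47 and 89 in Co replicates 1 to 8 at 1 month, 293, 65, 105, 24, 61, 77 and 81 in the Co libraries at 6 months, and 273, 41, 41, 82, 183, 197, 80 and 561 at 12 months. At 1 month 2 libraries came near the 760 to 767 of the strongest libraries at 3 months, and no library at 6 months did. ENSRNOG00000050000 had a median of 10.1 CPM in Co at 1 month, 1.03 CPM at 6 months and 0 CPM at 12 months.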

How the data were processed

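Total RNA from gastrocnemius was sequenced as stranded paired-end libraries, per the labels' protocols. Per the submitters' processing notes, the tools were HISAT2 2.0.5 and featureCounts 1.5.0-p3 with the build Rnor_6.0; the strand setting and annotation release are not given in the sources used here. The deposited values are raw read counts per gene, made by the authors, with no normalization. Here they were tested as deposited with edgeR 4.0.16 (R 4.3.3; TMM, filterByExpr, robust quasi-likelihood fit, Benjamini-Hochberg), with only the groups compared in each fit. Single library measures were tested by exact permutation (scipy 1.17.1). The comparison, its gene lists and its tests were chosen with earlier results of these data known. The 45 gene lists could not be tested, because no identifier was paired with a name. Named genes are the 2 largest rises and 2 largest falls among called genes that average 1 CPM or more with either metal and lie beyond the Ta median in 6 or more Co libraries.

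The labels do not say what a replicate number means. Deviations of same-numbered Co and Ta libraries from their group means correlated at 0.125 to 0.464 in all 8 pairs. The best match was the own number for 5 of 8 Co libraries. From these data alone, the numbers were taken to pair the libraries. The main fit and its lists of rises and falls ignore this pairing, and results with the replicate block are given beside them. No pair of Co or Ta libraries agreed within sampling noise (chi-square per degree of freedom of 20.4 or more). In simulated counts for Co against Ta, over 12429 genes, 35% of 2-fold and 85% of 4-fold changes were recovered. Alternatives were DESeq2 1.42.0, limma 3.58.1 voom with quality weights, other scaling, no filter, a replicate block, all libraries in 1 model and each library left out.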

Additional observations from a re-analysis of the deposited data

Results flagged for a closer look

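In 6 of 24 groups of values examined, 1 library lay far from the rest of its group by Dixon's criterion. That criterion flags about 1 in 20 groups by chance only where groups are independent and values normally distributed. The groups here share libraries and genes, and CPM and gene counts were not shown to be normal. The 6 of 24 can therefore not be compared with that rate. ENSRNOG00000048402 reached 11322 CPM in Co replicate 8, and the next Co library had 2918 CPM. ENSRNOG00000003171 reached 420 CPM in Ta replicate 3, and the next Ta library had 122 CPM. The number of the 767 rises above the highest Ta library was 271 in Ta replicate 4 (next 116), 231 in Ni replicate 4 (next 109) and 430 in DU replicate 2 (next 134). The median log2 ratio of the rises was -0.64 in Ta replicate 1, and the next lowest Ta library had -0.05.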

How the results depend on the processing

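Against 801 genes called for Co against Ta, the count was 774 with DESeq2 size factors, 1475 with the DESeq2 Wald test (1280 higher, 195 lower), 3 with limma voom and quality weights, 1515 with no filter on low counts, 3268 with all 150 libraries in 1 model (2603 higher, 665 lower) and 2810 with library totals (2798 higher, 12 lower; chosen after seeing the data). With the replicate block it was 1; the 3 voom calls and 784 of the 3268 were among the 801. Leaving out 1 library gave 365 to 1534. For Co against the other metals, 4081 genes became 6707 with all 150 libraries in 1 model, 1507 against Ni alone and 2182 against DU alone (4504 without DU replicate 2, chosen after seeing the data); leaving out 1 library gave 2566 to 6369, the extremes without Co replicate 2 and DU replicate 2, with 2697 without Co replicate 6 and 2661 without Co replicate 8. The replicate block gave 4008 there, where 1, 4 and 6 of 8 pairs with Ni, P and DU correlated above 0.1, so those numbers were not taken as pairs. The 19 rises without overlap became 19 to 55 with 1 library left out. The cause of these shifts was not tested. ENSRNOG00000003171 passed under 13 of 23 alternatives (adjusted p 0.00149 to 0.163), ENSRNOG00000018674 under 21, and the 2 largest rises under 22 each. No direction of a named gene reversed. Depth limits the lowest genes: ENSRNOG00000018674 rests on 114 counts over the Co group and 249 over the Ta group.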
